A study of Homo sapiens with 6 samples.

Results

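The genes described here are the ZNF genes of the proximal long arm of chromosome 19: the rows of the count table whose symbol is ZNF followed only by digits and whose start lies from base 26000000 to below base 50000000 of chromosome 19 in GRCh38. They are 62 of the 78932 rows, with 61 different symbols because ZNF781 stands on 2 rows, and their starts run from 30224891 (ZNF536) to 48270081 (ZNF114). 36 rows lie on the plus strand and 26 on the minus strand. The rule uses names and positions only, and no measured value. RNA-seq was performed in T24 cells, a human urothelial carcinoma (bladder cancer) line, after transfection with a negative control siRNA (siNC, 3 libraries) or with siRNA against TRIM28 (siTRIM28, 3 libraries). All libraries carry the same cell line and batch label, were made from poly(A) RNA with a stranded kit, and are labelled biological replicates. The comparison of siTRIM28 with siNC asks which transcripts change when TRIM28 is depleted in these cells.

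Most of these genes encode C2H2 zinc finger proteins, in which an array of fingers, each folded around a zinc ion, reads the bases of DNA. Many also carry a KRAB domain, whose A box recruits TRIM28 (KAP1), and TRIM28 in turn brings the histone methyltransferase SETDB1, HP1 proteins and the NuRD complex to the bound site, where H3K9me3 is laid down. Human chromosome 19 holds several arrays of such genes that arose by tandem duplication, and the fingers of many of them read transposable elements. The genes themselves can be occupied by TRIM28 and marked by H3K9me3, often over the exon that encodes the fingers.

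For 53 of the 61 symbols RefSeq promoter windows of GRCh38.p14 were matched, each reaching from 250 bases before to 50 bases after the start of the gene. The windows of the 3 genes with the lowest fold change and of the only gene called higher are shown so that the shared short sequences can be seen in their setting. Each is written in the direction of transcription, and capitals mark matches on either strand to a GC box (GGGCGG), an ETS motif (CCGGAAG), an NRF1 motif (GCGCATGC) and the letters TTCTGGGA, a stretch of the known ZNF143 motif. ZNF285 lies at chr19:44401559-44401858 on the minus strand, ZNF181 at chr19:34733993-34734292 on the plus strand, ZNF229 at chr19:44448423-44448722 on the minus strand and ZNF529 at chr19:36605208-36605507 on the minus strand.
ZNF285: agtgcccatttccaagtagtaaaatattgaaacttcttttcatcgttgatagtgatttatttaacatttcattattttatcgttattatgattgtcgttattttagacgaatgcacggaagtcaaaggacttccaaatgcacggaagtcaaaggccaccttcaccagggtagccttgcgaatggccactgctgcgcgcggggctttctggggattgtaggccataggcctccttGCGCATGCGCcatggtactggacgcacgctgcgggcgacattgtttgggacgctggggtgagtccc
ZNF181: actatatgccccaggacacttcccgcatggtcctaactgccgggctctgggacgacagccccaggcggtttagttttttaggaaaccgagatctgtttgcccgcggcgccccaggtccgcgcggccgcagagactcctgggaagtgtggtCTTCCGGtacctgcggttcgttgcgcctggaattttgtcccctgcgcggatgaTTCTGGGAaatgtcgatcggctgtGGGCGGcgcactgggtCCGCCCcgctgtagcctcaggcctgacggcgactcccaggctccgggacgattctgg
ZNF229: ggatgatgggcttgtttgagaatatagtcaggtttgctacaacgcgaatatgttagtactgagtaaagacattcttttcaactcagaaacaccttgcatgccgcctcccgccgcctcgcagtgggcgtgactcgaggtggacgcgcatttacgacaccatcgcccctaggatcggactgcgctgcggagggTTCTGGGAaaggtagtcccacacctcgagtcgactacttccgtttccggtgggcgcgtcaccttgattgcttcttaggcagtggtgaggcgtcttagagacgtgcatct
ZNF529: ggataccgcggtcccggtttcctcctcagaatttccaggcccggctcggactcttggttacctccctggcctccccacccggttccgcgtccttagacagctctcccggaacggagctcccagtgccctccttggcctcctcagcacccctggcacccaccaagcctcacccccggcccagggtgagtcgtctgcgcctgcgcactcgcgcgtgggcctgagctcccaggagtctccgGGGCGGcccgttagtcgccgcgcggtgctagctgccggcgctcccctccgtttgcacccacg

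The letters TTCTGGGA were present in 22 of the 53 promoters (41.5%), against 2.78% of all 27305 promoters in the table. They were searched because they recurred in these windows, so the share is a description and was not tested. The same letters were found in 0 of 73 promoters of ZNF genes that start earlier on chromosome 19, in 5.95% of 84 promoters of ZNF genes that start later on it, in 8.72% of 195 promoters of ZNF genes on other chromosomes and in 4.60% of 435 promoters of the other genes of the window. Genes that arose by duplication share promoter sequence, so the 22 promoters are not independent. The ETS motif was present in 14 of the 53 (26.4%, against 10.7% of all promoters), a smaller share than in the earlier (38.4%), later (60.7%) and other-chromosome (36.9%) ZNF genes. TATAAA was in 0 of the 53 windows (11.95% of all), CCAAT in 11 (20.8% against 35.7%) and the GC box in 24 (45.3% against 44.6%). The YY1 motif AAGATGGC was in 3 (5.66% against 3.03%) and GCGCATGC in 3 (5.66% against 3.27%). The median window held 21 CpG dinucleotides, against 14 over all promoters.

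TRIM28 itself (chromosome 19, 58544064 to 58550649, outside the window) had 1419, 1393 and 1382 reads in the siNC libraries and 130, 96 and 109 in the siTRIM28 libraries. Levels are given below as CPM (counts scaled to a common library total with TMM factors), and TRIM28 fell from 103 ± 4.08 to 8.84 ± 0.655 CPM (mean ± SD, n = 3 each; log2 fold change -3.54, adjusted p = 1.03e-10, edgeR). Unless another fit is named, every adjusted p below is from the same edgeR fit over 18474 genes. A gene is called where its adjusted p is under 0.05. Library totals were 12989362 to 13942383 counts in siNC and 11712623 to 14018052 in siTRIM28. Replicates 1 and 2 of siNC, and replicates 2 and 3 of siTRIM28, were close to counting noise (chi-square per degree of freedom of 1.08 and 1.24, against 4.44 to 6.96 in the other replicate pairs). Beyond the replicate label, the sources used here do not say which cultures these came from. With each close pair summed 12 of the 55 members tested were lower and 1 higher. In that fit 16.1% of all genes were lower and 16.0% higher. Of the epithelial markers KRT8 and KRT18 stood near 103 and 85.8 CPM in siNC and KRT7 at 2.83, whereas KRT19, EPCAM, GATA3 and UPK2 were under 1 CPM. The 7 summed to 190 to 197 CPM in siNC and 207 to 214 in siTRIM28. The 5 markers of blood, endothelial and liver cells summed to at most 1.09 CPM in any library, with CD3E at 0 throughout.

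Of the 62 rows, 55 reached 10 counts in 3 or more libraries and were tested, and 51 had at least 10 counts in every library. After TRIM28 silencing 14 of the 55 were called lower and 1 was called higher, and 40 passed in neither direction. The 14 are 25.5% of those tested, where 20.5% of all genes were called lower, so the share of lower calls lies near the background. The 1 higher call is 1.82%, where 21.3% of all genes were called higher. With an added limit of 0.58 on the absolute log2 fold change, 4 were lower (ZNF285, ZNF181, ZNF229 and ZNF30; background 7.51%) and 0 higher (background 9.5%). The log2 fold change was negative in 45 and positive in 10, where over all 18474 genes it was negative in 8958 and positive in 9516. The members' median was -0.27 (quartiles -0.41 and -0.05, range -1.07 to 0.44) beside 0.02 over all genes. All siTRIM28 libraries lay under all siNC libraries in 26 of the 55 (background 25.7%), and above them in 3, ZNF529, ZNF283 and ZNF224 (background 26.3%). In bulk RNA fewer transcripts per cell and a smaller share of cells with the transcript cannot be told apart.

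The median member had 75.3 counts per library, against 136 over all genes tested. Among the 36 with at least 50 counts on average, 13 were lower (36.1%, against 26.3% of the 12828 such genes) and 1 higher (2.78%, against 23.9%), with a median log2 fold change of -0.26. Without siNC replicate 1, 9 of the 53 members tested were lower, where 17.4% of all genes were. The number of lower members was between 11 and 15 when any other library was left out. In those fits 17.6% to 23.1% of all genes were lower.

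**Figure D1:**
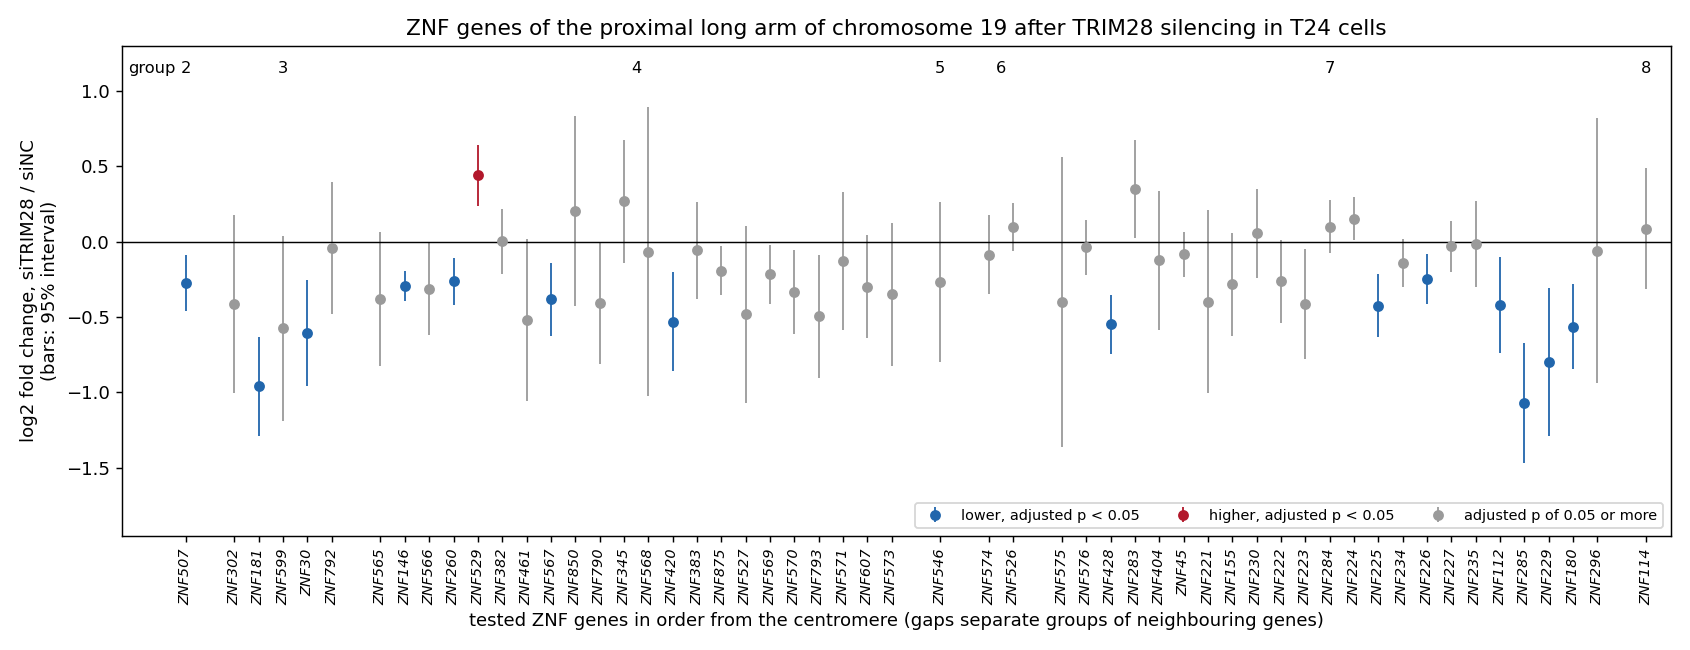
log2 fold change of siTRIM28 over siNC (y axis, points, with 95% intervals as bars) for the 55 tested ZNF genes in order from the centromere (x axis), with gaps between the groups of neighbouring genes numbered at the top. Blue genes were called lower, the red gene higher and grey genes neither; 45 points lie below 0, and the lowest, ZNF285, stands beside ZNF229, ZNF180 and ZNF112, all lower.

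The members' reads summed to 644.7, 622.2 and 631.6 CPM in the siNC libraries and to 545.9, 547.2 and 543.7 CPM in the siTRIM28 libraries. The sums did not overlap, and their means were 633 ± 11.3 and 546 ± 1.79 CPM, a change of -13.8%. Much of the sum and of its change came from few genes. ZNF146 alone had a mean of 166 CPM in siNC and 136 in siTRIM28, and ZNF428 had 33.6 and 23.0. Against the mean of siNC the median member stood at -0.20, -0.22 and -0.21 on the log2 scale in the 3 siTRIM28 libraries. A siNC library against the remaining siNC libraries gave 0.04, -0.04 and 0.01. Thus the shift of the median member was of like size in each siTRIM28 library and larger than the spread among siNC libraries. Replicates 1 and 2 of siNC, and 2 and 3 of siTRIM28, were close to counting noise. The spread between independent cultures may therefore be larger than seen here.

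**Figure D2:**
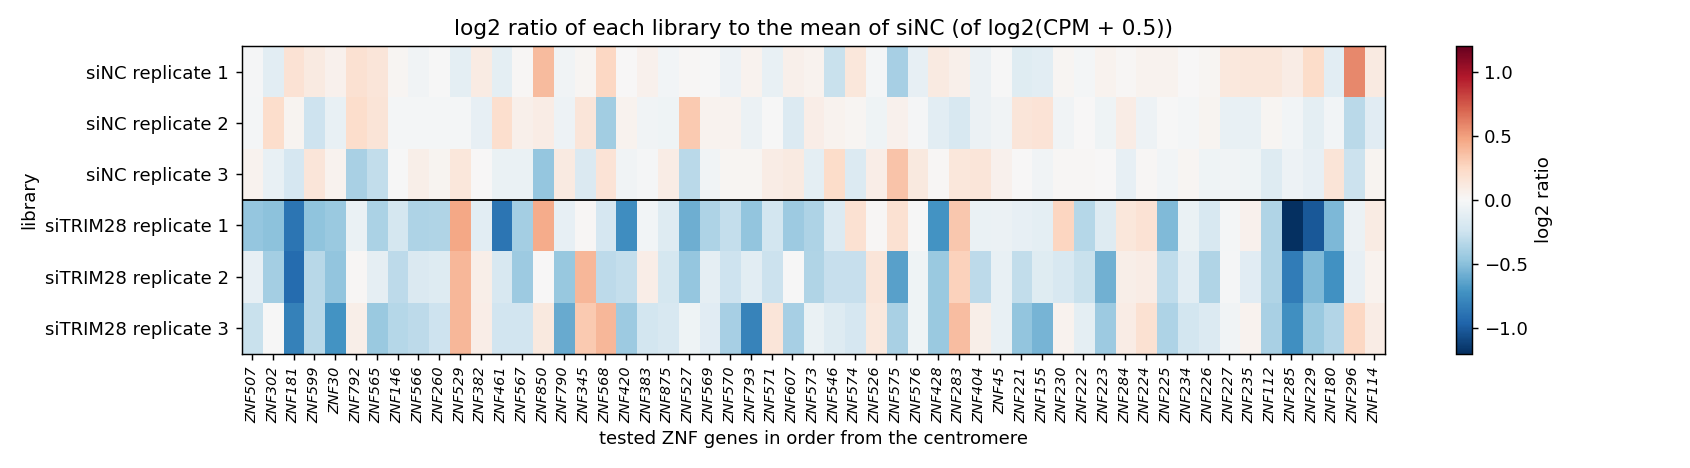
log2 ratio of each library (rows) to the mean of the siNC libraries, from log2(CPM + 0.5), for the 55 tested ZNF genes in order from the centromere (columns); blue is lower and red is higher. The siTRIM28 rows are mostly blue in all 3 replicates, with ZNF529 and ZNF283 red in each.

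The members were sorted by start and split wherever the next start was 1000000 bases or more away, which gave 8 groups. The third group, ZNF302 to ZNF792 (34677639 to 34964229), holds 5 genes, and all 5 had a negative log2 fold change with a median of -0.57. ZNF181, a KRAB zinc finger gene of this group (34734155 to 34740725), had 8.47, 7.63 and 6.41 CPM in siNC and 3.84, 3.70 and 4.04 CPM in siTRIM28. No siTRIM28 library reached the lowest siNC library, and ZNF181 fell by 48.6% (log2 fold change -0.96, 95% interval -1.29 to -0.63, adjusted p = 3.24e-04). ZNF30, with 16 fingers and a KRAB A box, had 4.81, 4.32 and 4.77 CPM in siNC and 3.27, 3.20 and 2.61 CPM in siTRIM28. It was lower as well (-0.61, adjusted p = 0.00993). Their neighbours ZNF599 (-0.57), ZNF302 (-0.41) and ZNF792 (-0.04) were not called, and ZNF599 and ZNF302 averaged only 14.3 and 18.7 counts a library.

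The seventh group, ZNF575 to ZNF296 (43525497 to 45076478), holds 24 rows, of which 23 were tested. 7 were lower (30.4%, beside 20.5% of all genes) and 0 higher (21.3% of all genes), with a median log2 fold change of -0.25. Near its far end ZNF112, ZNF285, ZNF229 and ZNF180 stand next to each other in this order, and all 4 were lower. The last member of the group, ZNF296, was not called (-0.06). ZNF285 (44382298 to 44401608, 10 fingers and a KRAB A box) had 5.60, 5.11 and 5.0025 CPM in siNC and 1.92, 2.69 and 2.95 CPM in siTRIM28. This was the lowest fold change of any member, -1.07 on the log2 scale or -52.3% (95% interval -1.47 to -0.67, adjusted p = 5.72e-04). ZNF229, with 16 fingers, had 4.02, 3.10 and 3.13 CPM in siNC and 1.42, 2.19 and 2.36 CPM in siTRIM28 (-0.80, 95% interval -1.29 to -0.31, adjusted p = 0.0131). Without siNC replicate 1 ZNF229 was not called.

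ZNF180 (44474428 to 44500522) had 9.33, 10.0 and 11.5 CPM in siNC against 6.91, 5.98 and 7.91 CPM in siTRIM28. The groups did not overlap and ZNF180 was lower (-0.57, adjusted p = 0.00421). ZNF112 had 6.03, 5.54 and 4.85 CPM in siNC against 4.13, 4.13 and 4.04 CPM in siTRIM28 (-0.42, adjusted p = 0.0382), and this call was lost in 9 of the 15 alternatives, among them the removal of siNC replicate 1, siNC replicate 2 or any siTRIM28 library. The tandem members ZNF225 and ZNF226 of the group were lower too, the latter being outside the rule for named genes and named after its values were seen. ZNF225 had 12.3, 11.95 and 11.7 CPM in siNC against 8.19, 9.60 and 9.18 CPM in siTRIM28 (-0.42, adjusted p = 0.00359). ZNF226 moved from 17.7 ± 0.609 to 14.9 ± 1.09 CPM (-0.25, adjusted p = 0.0224), a call lost with DESeq2, with the close pairs summed and without siNC replicate 1, siNC replicate 2 or siTRIM28 replicate 2.

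Not all neighbours in the seventh group moved that way. ZNF224, a KRAB protein known as a repressor of aldolase A and a partner of WT1, is the neighbour of ZNF225 on the same strand. It had 25.8, 24.05 and 25.2 CPM in siNC and 28.3, 26.7 and 28.5 CPM in siTRIM28, so every siTRIM28 library lay above every siNC library, but it was not called (0.15, 95% interval 0.01 to 0.29, adjusted p = 0.0790) except under upper-quartile scaling (adjusted p = 0.0382). ZNF45, a KRAB gene, had 16.05 ± 0.556 CPM in siNC and 15.1 ± 0.0947 in siTRIM28 (-0.08, adjusted p = 0.432). ZNF283 had 4.47 ± 0.5798 and 5.69 ± 0.211 CPM (0.35, adjusted p = 0.0776), and was added to the named genes because its groups did not overlap.

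The fourth group, ZNF565 to ZNF573 (36182276 to 37817300), is the largest with 26 rows. 22 were tested, 4 were lower (18.2%, under the 20.5% of all genes), 1 was higher (4.55%, against 21.3%) and the median log2 fold change was -0.30. ZNF420 (Apak, a KRAB protein known to restrain p53) had 6.82, 6.98 and 6.57 CPM in siNC and 3.84, 5.47 and 4.88 CPM in siTRIM28. It was lower (-0.53, adjusted p = 0.0142), a call lost without siTRIM28 replicate 1, the library with the lowest value. ZNF567 had 9.55, 9.87 and 8.91 CPM in siNC and 6.98, 6.82 and 7.999 CPM in siTRIM28 (-0.38, adjusted p = 0.0158), and all of its siTRIM28 values lay under the siNC values. Its call was lost with DESeq2, with the close pairs summed and without siNC replicate 1, siNC replicate 2 or siTRIM28 replicate 2.

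ZNF529 was the only member called higher. This KRAB zinc finger gene (36534774 to 36605243, minus strand, 9 fingers) had 8.97, 9.58 and 10.8 CPM in siNC and 13.7, 13.05 and 13.05 CPM in siTRIM28. The groups did not overlap, and the log2 fold change was 0.44 (95% interval 0.24 to 0.64, adjusted p = 0.00233), a rise of 35.9%. It overlaps ZNF529-AS1 on the opposite strand, which was also higher (0.64, adjusted p = 0.00820), and the strand setting of the counting is not given in the sources used here, so reads of the 2 genes may not be told apart.

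**Figure D3:**
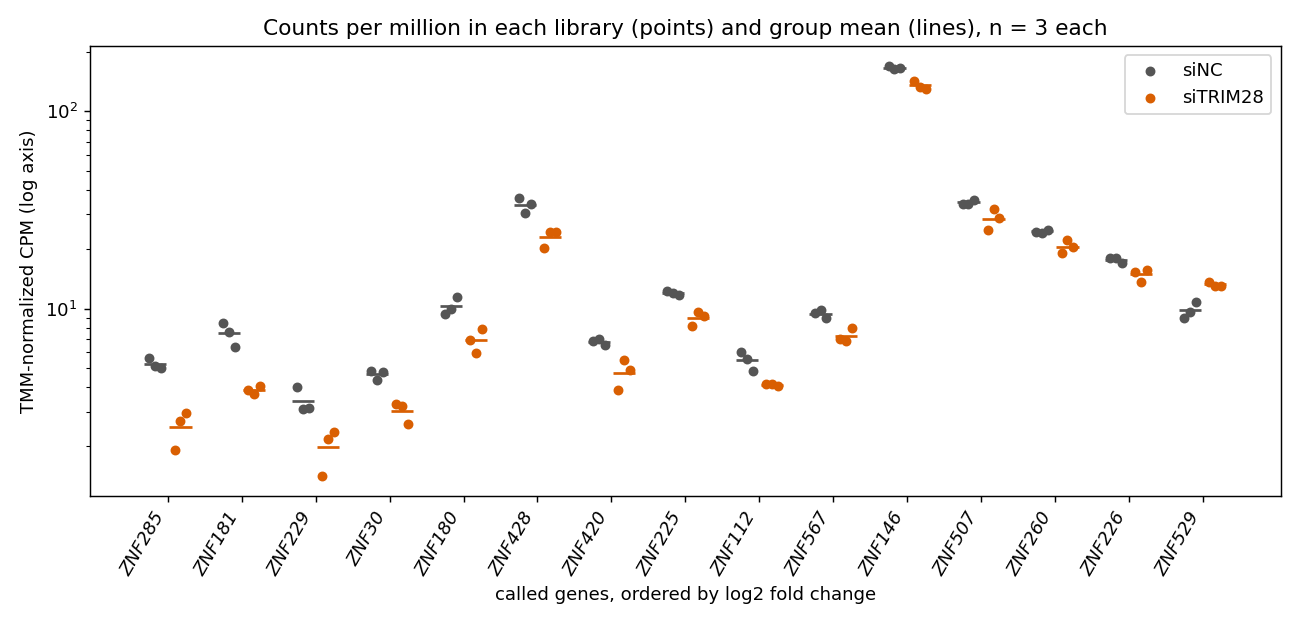
TMM-normalized CPM (y axis, log scale) in each library (points; grey siNC, orange siTRIM28) and group mean (lines) for the 15 members called lower or higher, ordered by log2 fold change (x axis). The points of the 2 groups do not overlap for any of the 15, and ZNF529 at the right is the only gene whose siTRIM28 points lie above.

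ZNF529 starts head to head with ZNF382, a KRAB repressor described as silenced by promoter methylation in several cancers. The annotated genes overlap by 427 bases at their starts, and their promoter windows share 155 bases. ZNF382 had 11.7, 10.2 and 10.9 CPM in siNC and 9.97, 11.5 and 11.5 CPM in siTRIM28, values that overlapped fully (log2 fold change 0.00, 95% interval -0.21 to 0.22, adjusted p = 0.995). ZNF790 and ZNF345 also overlap by 427 bases head to head, with log2 fold changes of -0.41 and 0.27, neither called. ZNF569 and ZNF570 overlap by 1691 bases, with -0.22 and -0.33, neither called. ZNF568, whose mouse counterpart represses an Igf2 promoter in the placenta, starts 25 bases from the start of ZNF829 and had under 1.02 CPM in every library (-0.06, 95% interval -1.03 to 0.90, adjusted p = 0.920).

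In the longest annotated protein of each gene, 47 of the 61 held a KRAB A box, read as the pattern of 14 fixed letters with at most 4 changed, and 14 did not. The proteins had 1 to 29 fingers, with a median of 12. Of the 44 tested members with a KRAB A box 9 were lower (20.5%, the share also found over all genes) and 1 higher, with a median log2 fold change of -0.27. Of the 11 without it 5 were lower (45.5%) and 0 higher, with a median of -0.26. ZNF180 was counted as having no box because 5 letters were changed, 1 more than allowed, while the other 13 had 9 to 11 changed. The members without the box had more reads (median 233 counts a library against 64.4), which moves with the share of calls, and its part in that share was not tested.

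**Figure D4:**
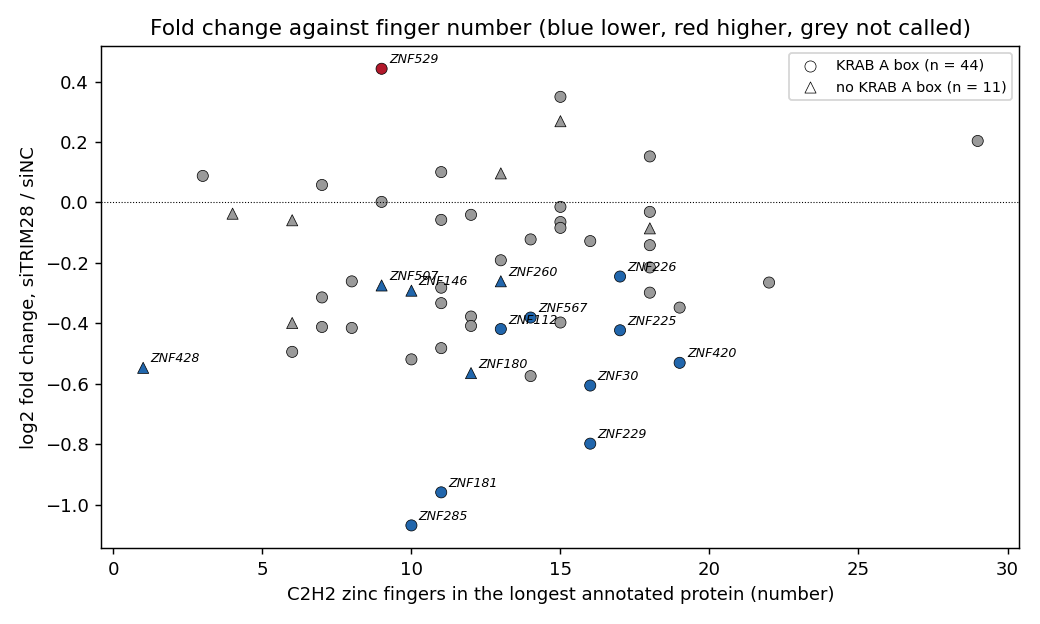
log2 fold change of siTRIM28 over siNC (y axis) against the number of C2H2 fingers in the longest annotated protein (x axis) for the 55 tested members, with circles for proteins with a KRAB A box (44) and triangles for those without (11). Genes called lower (blue) run from 1 finger (ZNF428) to 19 fingers (ZNF420), and the 29-finger ZNF850 was not called.

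The 5 members with the highest mean level per length (RPKM, the CPM defined above per kilobase of gene length) all lacked a KRAB A box. ZNF146 (OZF, a protein made almost only of fingers) led with 40.1 RPKM in siNC, followed by ZNF428 with 21.6, ZNF260 with 4.43, ZNF526 with 4.07 and ZNF574 with 3.92. ZNF146 had 169, 163 and 166 CPM in siNC and 143, 133 and 130.5 CPM in siTRIM28, so a small shift stood clear of the spread (-0.29, 95% interval -0.39 to -0.19, adjusted p = 3.59e-04). ZNF428, whose protein holds 1 finger, had 36.3, 30.6 and 33.9 CPM in siNC and 20.2, 24.5 and 24.4 CPM in siTRIM28. It was lower by 31.6% (log2 fold change -0.55, adjusted p = 4.73e-04), and SRRM5, which overlaps it on the other strand, was lower too (-0.29, adjusted p = 0.00703).

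ZNF260, a finger protein whose rodent counterpart works with GATA4 in the heart, had 24.6, 24.3 and 25.2 CPM in siNC and 19.1, 22.1 and 20.6 CPM in siTRIM28 (-0.26, adjusted p = 0.0117), a call lost with DESeq2. ZNF507 (32345594 to 32387667), the only tested member of the second group, had 34.1, 34.0 and 35.6 CPM in siNC and 24.99, 32.2 and 28.7 CPM in siTRIM28. Its groups did not overlap (-0.27, adjusted p = 0.0217), but the call was lost without siNC replicate 1, siNC replicate 3 or siTRIM28 replicate 3. DPY19L3-DT, which overlaps ZNF507 on the opposite strand, moved the other way and was higher (1.13, adjusted p = 0.03735). ZNF574 (18.3 ± 1.98 and 17.15 ± 3.11 CPM) and ZNF526 (17.3 ± 0.867 and 18.5 ± 0.949 CPM), which form the sixth group, overlapped between the conditions and were not called (-0.09, adjusted p = 0.604, and 0.10, adjusted p = 0.326), although ZNF574 was called lower without siTRIM28 replicate 1 (adjusted p = 0.0226).

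The remaining members chosen for their known roles were low. ZNF345 moved from 2.90 ± 0.372 to 3.53 ± 0.541 CPM (0.27, 95% interval -0.14 to 0.68, adjusted p = 0.278). ZNF114 had 2.44 ± 0.254 and 2.59 ± 0.0568 CPM (0.09, adjusted p = 0.757). ZNF296, a partner of KLF4 in mouse cells, had 1.51, 0.576 and 0.625 CPM in siNC and 0.783, 0.758 and 1.09 CPM in siTRIM28, with no difference detectable at this depth (95% interval -0.94 to 0.82).

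7 rows were not tested. ZNF536, a neuronal repressor, had 2 to 7 counts a library, ZNF540 had 4 to 8, ZNF829 had 0 to 5 and ZNF233 had 2 to 16. ZNF541, known from meiosis in the testis, had 1 count in 1 siTRIM28 library and 0 in the other 5, and each of the 2 rows of ZNF781 had at most 1 count. These counts are too few for a comparison. Of the members tested, 1 had 10 counts in all siNC libraries but not in all siTRIM28 libraries, and 0 the other way round.

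Of the 13 lower members with a promoter window, 9 held TTCTGGGA, as did 13 of 35 members called in neither direction and 0 of 1 called higher. The 22 tested members with these letters had a median log2 fold change of -0.26 (range -0.96 to 0.35), and the 27 without had -0.22 (range -1.07 to 0.44). ZNF285, with the lowest fold change, has no exact match in the window shown above, and ZNF181 and ZNF229 have 1 each.

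Overlapping annotation touches many members. 24 of the tested members overlap a tested gene on the opposite strand (6 lower, 1 higher, median log2 fold change -0.17), and 22 overlap no tested gene (5 lower, 0 higher, median -0.27), beside 20.5% lower over all genes. ZNF112, ZNF285 and ZNF229 overlap unnamed genes on their own strand, which had log2 fold changes of -0.50 (ENSG00000267173, adjusted p = 0.0649) and -0.60 (ENSG00000267188, adjusted p = 0.244) and were not called. How reads in such overlaps were assigned is not given in the sources used here, so the counts of these genes are uncertain to that extent. In GENCODE release 29 transcripts, 46 of the 61 genes shared under 1% of their 75-base words with any other gene. Among the genes called lower the largest shares were 9.71% in ZNF112 (with AC245748.1), 7.34% in ZNF229 (with AC245748.2), 4.85% in ZNF181 and 4.04% in ZNF285. Of all 75-base words of ZNF181, 1.84% were shared with other members. ZNF223 and ZNF284 shared 42.9% each, in both cases with AC067968.1, and neither was called (-0.42 and 0.10).

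A siRNA can also lower transcripts that match its seed, bases 2 to 8 of the guide strand, in the 3' UTR. The study lists 2 siRNAs against TRIM28, and which was used for these libraries is not given in the sources used here. The match to the seed of siTRIM28-2, TCCTGTC, is in the annotated 3' UTR of 5 tested members (ZNF229, ZNF420, ZNF226, ZNF546 and ZNF850), of which 3 were lower. Of the 50 without it 11 were lower and 1 higher, and the median log2 fold change was -0.27 in each set. Over all genes tested 42.5% of the 2165 with a match were lower, against 22.9% of the 9920 with an annotated 3' UTR and no match. Among all genes tested, those with this match had longer 3' UTRs, with a median of 2780 bases against 1165 in those without it. Among members the medians were 4289 and 1602 bases. The part of this length in the shares was not tested. For siTRIM28-1 (ATGTGCA) 2 of 7 members with a match were lower (28.6%, median -0.04), and 12 of 48 without (median -0.27). Over all genes 28.6% were lower with a match and 26.0% without. The 2 lower members with this match were ZNF285 (-1.07) and ZNF181 (-0.96), which had the lowest fold changes of all members. Whether seed matches of either siRNA had a part in these lower calls was not tested.

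The other ZNF genes and the other genes of the window are set beside these members. The 64 tested ZNF genes that start before the window on chromosome 19 had 14 higher and 7 lower calls and a median log2 fold change of 0.12. The 78 that start after the window had 10 higher and 18 lower calls and a median of -0.16. The 203 on other chromosomes had 32 higher and 45 lower calls and a median of -0.08. Among the 406 other genes of the window 110 were higher and 64 lower, with a median of 0.07. ZNF genes with a letter suffix and ZFP genes of the window, which the rule leaves out, gave 0 higher and 1 lower of 7, with a median of -0.22. The members thus had the lowest median of these sets and, apart from that small last set, the smallest share of higher calls, and no test of the difference between sets was run. The nearest ZNF genes outside the window, ZNF254 before it (0.67, adjusted p = 4.02e-05) and ZNF473 after it (0.28, adjusted p = 0.0298), were both higher.

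**Figure D5:**
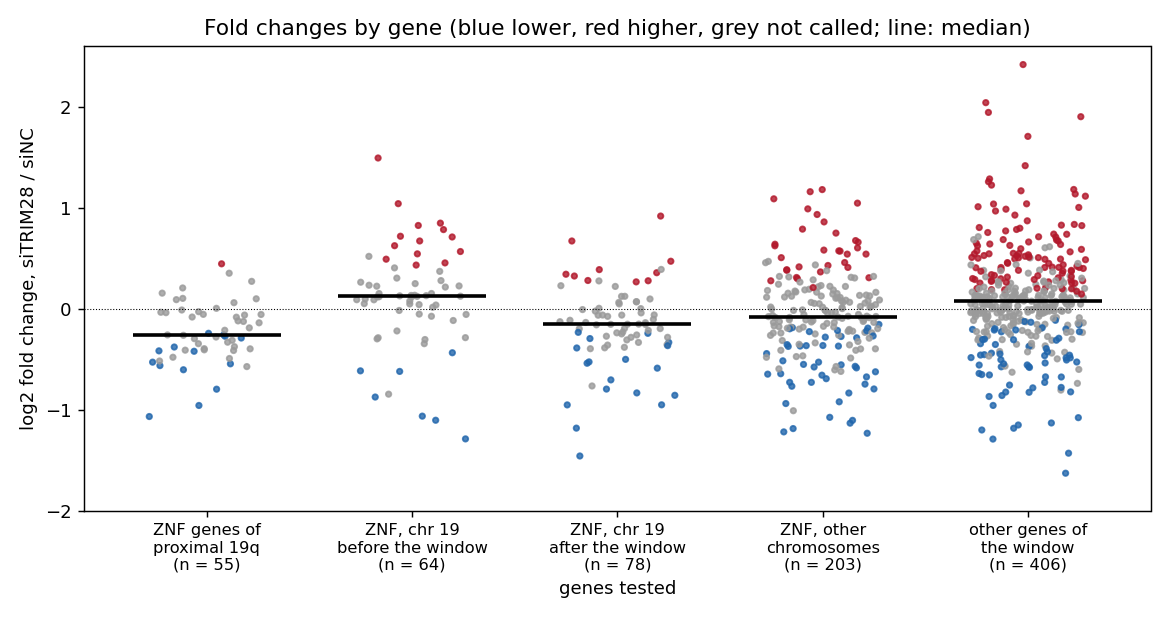
log2 fold change of siTRIM28 over siNC (y axis) of each tested gene in 5 sets (x axis), with blue for lower, red for higher, grey for not called and a line at the median. The ZNF genes of the proximal long arm have a median of -0.27 and 1 red point, and the ZNF genes that start before the window have a median of 0.12 and 14 red points.

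The 15 genes of a fixed list of TRIM28 partners and of the HUSH and NuRD complexes were all tested. 3 were higher: the chromatin remodeller ATRX (0.56, adjusted p = 6.78e-07), ZNF274, a KRAB protein that recruits TRIM28 to ZNF genes (0.39, adjusted p = 0.00227), and HDAC1 (0.12, adjusted p = 0.0398). 5 were lower, MORC2 (-0.35), CHD3 (-0.28), TASOR (-0.18), HDAC2 (-0.16) and CBX1 (-0.14). These are 3 and 5 of 15, beside 21.3% higher and 20.5% lower over all genes, and the list's median was 0.01, beside 0.02. The methyltransferase SETDB1 had 25.1 ± 1.25 CPM in siNC and 26.3 ± 1.80 in siTRIM28 and was not called (0.07, adjusted p = 0.465).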

How the data were processed

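RNA-seq of T24 cells was analysed in 6 libraries, 3 siNC and 3 siTRIM28, grouped by their labels. Per the labels' processing notes the authors used fastp 0.23.1, STAR 2.7.6a and featureCounts with GRCh38, and deposited raw read counts per gene. The annotation release, the strand setting, the handling of reads with several matches and any removal of duplicates are not given in the sources used here. A deposited table of the authors' selected genes with RPKM values was not used.

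Counts of genes with at least 10 reads in at least 3 libraries were tested with edgeR 4.0.16 in R 4.3.3 (TMM factors, glmQLFit and glmQLFTest), with Benjamini-Hochberg adjustment over 18474 genes. A gene was called at an adjusted p under 0.05. The common biological coefficient of variation was 0.0733. The code was tested on simulated data. Exact two-sided permutation of 3 against 3 libraries cannot give p under 0.1, so no such p is shown. RPKM was computed from the TMM-scaled CPM and gene lengths. Library totals of 11712623 to 14018052 counts put 10 reads under 1 CPM, and precision there is set by counting error.

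The members and lists were chosen with earlier results of these data known. Named genes are TRIM28, up to 10 largest rises and falls among called members with a mean of at least 20 counts and groups apart, the 5 highest in mean RPKM, and 17 members by known role. Fingers (C-X2-4-C-X12-H-X3-5-H) and KRAB A boxes were read from translations of the longest GENCODE release 29 coding sequence, since no RefSeq protein table was used here. Same-numbered replicates did not pair. Alternatives were DESeq2 1.42.0, limma-voom 3.58.1, scaling by RLE, by the upper quartile or by the total count, other count filters, a replicate block, a stricter threshold, summed close replicates and leaving out each library.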

Additional observations from a re-analysis of the deposited data

How the results depend on the processing

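In every alternative run the median log2 fold change of the members was negative, and ZNF529 was the member called higher, with 1 further higher call (2 in all) under upper-quartile scaling. At the 0.05 threshold the number of lower calls lay between 9 and 16, with 10 by DESeq2. It was 7 at an adjusted p under 0.01. Over all genes 16.2% were lower by DESeq2. In the other runs at 0.05 this share lay between 16.1% and 23.1%, apart from 8.53% without the count filter. The share over all genes at 0.01 is not given here. When single libraries were left out 9 to 15 members were lower. The lowest number was without siNC replicate 1, where 17.4% of all genes were lower. 7 of the 14 lower calls were kept in all alternatives at the 0.05 threshold (ZNF285, ZNF181, ZNF30, ZNF180, ZNF428, ZNF225 and ZNF146), and 0 of the 14 changed sign. The median was -0.23 with upper-quartile scaling, -0.25 with total-count scaling, -0.28 with DESeq2, -0.28 with the close replicates summed, and -0.28 to -0.25 with single libraries left out.

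Values near 0 changed sign. ZNF382 gave -0.0034958 with RLE scaling, -0.0015006 with DESeq2, -0.00044243 with limma-voom, -0.007649 without the count filter, -0.01721 with close replicates summed and -0.051109 to 0.073033 with single libraries left out. ZNF568 and ZNF296 kept enough counts for a test in 3 of the 6 fits that left out a library, where ZNF568 ranged from -0.37001 to 0.13307 and ZNF296 from -0.30863 to 0.017317. ZNF296 gave 0.066194 under limma-voom. The cause of these changes was not tested, and these genes have no call in any direction. The replicate numbers do not pair the samples (correlations of same-numbered deviations 0.0523, -0.0118 and 0.0374), and not every sample correlated best with its own number. With the number as a block (replicate block) 15 members were lower and 1 higher, with a median of -0.26. In that fit 21.0% of all genes were lower and 21.8% higher. Depth limits what can be seen for members under 50 counts a library.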
